A study of Mus musculus with 12 samples.

Results

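The nuclear genes of respiratory complex I were described in mouse Th1 cells labelled as Sdhc knockout or control. They were taken as the rows of the expression table whose gene symbol begins with Nduf, which are 45 of 18929. The symbols fall into 7 core subunits, 28 accessory subunits, the acyl carrier protein Ndufab1, 7 assembly factors with Ndufaf symbols, and 2 genes that carry the family name without belonging to complex I, Ndufa4 and Ndufa4l2. The core and accessory subunits and Ndufab1 together make 36 subunits of the complex.

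The study measured RNA by sequencing in T helper 1 (Th1) cells, CD4 T cells driven towards interferon gamma production, from C57BL/6 mice after 5 days of culture under Th1 conditions. One group was labelled Sdhc cKO, a conditional knockout of a membrane subunit of complex II (succinate dehydrogenase), with 3 libraries, and the controls were labelled WT, also with 3. RNA came from sorted cells, and the labels give neither the Cre driver nor the ages. They also do not say that replicates came from different mice or wells. Sex-linked transcripts, given below, differed between libraries of the same group, but whether each library is a separate mouse is not known. The p-values rest on library-to-library spread, of which a part may be technical. The other 6 samples of the series, with Slc25a1 KO, Slc25a11 KO or empty vector, were not analysed here.

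Complex I takes electrons from NADH and passes them to ubiquinone while it pumps protons across the inner mitochondrial membrane. Its matrix arm holds the flavin, the iron-sulfur clusters and the quinone site, and its membrane arm holds the proton channels, whose core subunits are encoded by mitochondrial DNA. Accessory subunits surround the core in both arms, and assembly factors build or modify the complex without staying in the finished enzyme. Complex II feeds the same ubiquinone pool from succinate.

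The 6 libraries held 18144933 to 21983821 reads, and Nduf genes took 0.229% to 0.246% of the reads of a library. Sdhc (chr1:171127165-171150603, minus strand, GRCm38) was at 1452, 1562 and 1655 normalised counts in cKO 1 to 3, against 1683, 1602 and 1892 in control 1 to 3 (log2 fold change -0.15, SE 0.09; 2-sided exact permutation p = 0.2). These groups overlapped, and a count over the whole gene does not show whether an exon is missing. The sex-linked transcripts differed among the libraries within each group. The 4 Y-linked genes summed to 4.02, 3833 and 3698 normalised counts in cKO 1 to 3, against 0.926, 2583 and 1107 in control 1 to 3, so both libraries numbered 1 stood apart from the other 4. Xist was at 7565, 0 and 2.15 normalised counts in cKO 1 to 3, against 9779.6, 2490.5 and 6406 in the controls, and thus control 2 and control 3 held both kinds of transcript. The 5 T cell markers summed to 42692 to 52409 normalised counts in cKO libraries, against 41892 to 45379 in controls. The 4 Th1 markers summed to 5408 to 6231 in cKO libraries, against 6318 to 6772 in controls, without overlap. One of the 4, Ifng, was at 858, 880 and 865 in cKO libraries, against 1342, 1461 and 1342 in controls. The sum of the 4 Th1 markers was 6231, 5667 and 5408 in cKO 1 to 3, against 6717, 6772 and 6318 in control 1 to 3. With Ifng taken out of this sum, the groups overlapped. Whether any single one of the other Th1 markers differed cannot be read from it. Of all genes tested, 5.64% had every cKO library below every control library. The 2 CD8 T cell markers summed to 235 to 547 in cKO libraries, against 278 to 368 in controls, and the 3 NK cell markers to 171 to 265 in cKO libraries, against 140 to 378 in controls. Markers of B cells, myeloid cells, red cells and stroma summed to at most 93.1 in any library. In bulk RNA, fewer cells of a type and less RNA per cell cannot be told apart.

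No Nduf gene passed the test between Sdhc cKO and control cells. Of the 45 genes, 44 passed the filter on low values, and 0 of these 44 were called lower or higher by limma-trend at an adjusted p under 0.05, as were 0 of all 12699 genes tested (0%). At an unadjusted p under 0.05, limma-trend had 0 of the 44, beside 3.5% of all genes tested. edgeR also called 0 genes, and DESeq2 called 2 of all genes (0.0157%), with no Nduf gene among them. At an unadjusted p under 0.05 edgeR had 0 Nduf genes, beside 3.58% of all genes, and DESeq2 had 0, beside 2.3%.

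The measured differences were small. The log2 fold change lay under 0.2 in either direction for 40 of 44 Nduf genes (90.9%), against 75.5% of all genes tested. It was under 0.1 for 29 of the 44. The median SE was 0.098 for the Nduf genes and 0.136 for all genes tested, and these sets were not matched for level. The median log2 fold change was -0.02 for the Nduf genes and -0.01 for all genes. Of the 44, 28 were on the lower side, beside 54.1% of all genes. With upper-quartile scaling the median was 0.01 and 20 of 44 were on the lower side, beside 44.1% of all genes, so the direction of the list depends on the scaling. The 95% interval included 0 for all 44 genes and lay within 0.5 of 0 for 37 of them. The intervals of Ndufa12, Ndufb2, Ndufb4, Ndufaf2, Ndufaf3, Ndufaf4 and Ndufaf6 reached past 0.5 on one side.

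**Figure D1:**
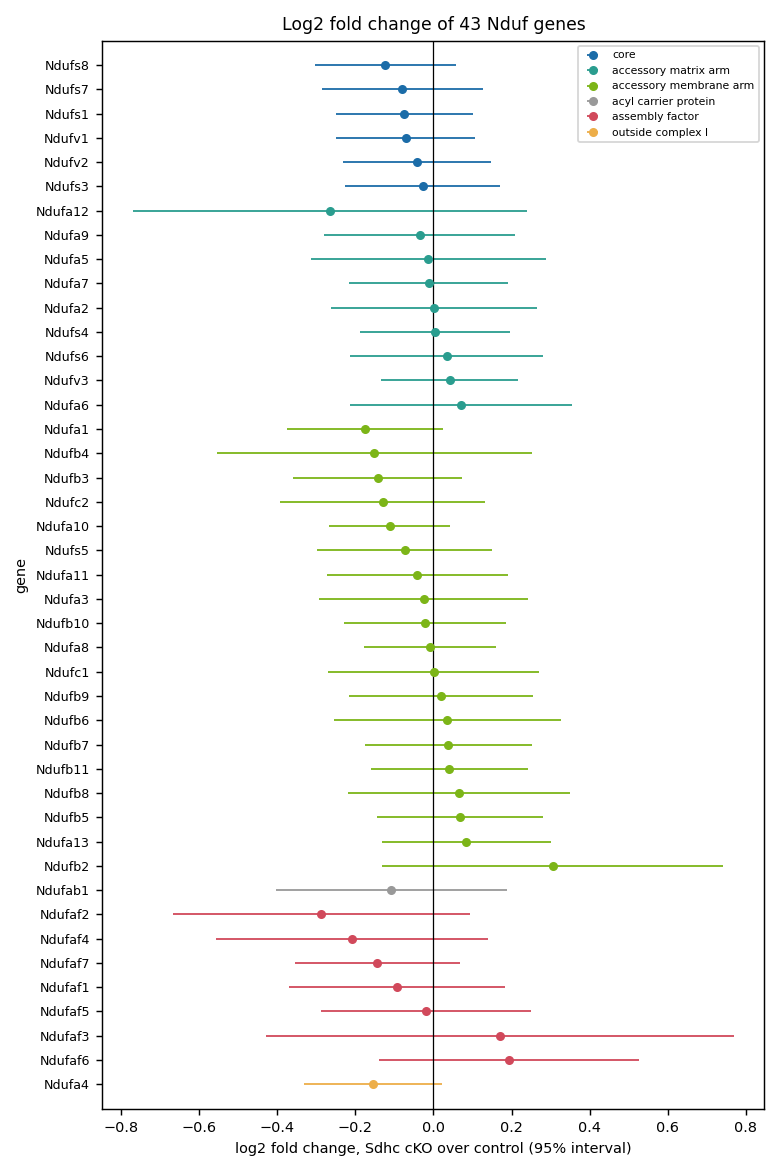
The log2 fold change of Sdhc cKO over control on the x axis is drawn for 43 of the 44 tested Nduf genes down the page, with points for the limma-trend estimate, lines for its 95% interval (3 libraries per group) and colours for the class. All 43 lines cross 0, and the longest belong to Ndufa12 and Ndufaf3.

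Among the Nduf genes, 4 had every cKO library below every control library and 0 had the reverse. Beside this, 5.64% of all genes tested lay apart on the lower side and 4.51% on the higher side, 10.2% in either direction. The 4 were Ndufa1 and Ndufa10, which encode membrane-arm subunits, Ndufaf7, an assembly factor with methyltransferase activity, and Ndufa4, a subunit of cytochrome c oxidase (complex IV). The promoter windows of these genes are shown because they are the genes whose groups did not overlap. Each runs 5′ to 3′ on the gene's strand from 250 bases before the RefSeq start to 50 bases after it (GRCm38.p6), and capitals mark matches to any of the motifs named after them.
Ndufa1 (chrX:37191189-37191488, minus strand): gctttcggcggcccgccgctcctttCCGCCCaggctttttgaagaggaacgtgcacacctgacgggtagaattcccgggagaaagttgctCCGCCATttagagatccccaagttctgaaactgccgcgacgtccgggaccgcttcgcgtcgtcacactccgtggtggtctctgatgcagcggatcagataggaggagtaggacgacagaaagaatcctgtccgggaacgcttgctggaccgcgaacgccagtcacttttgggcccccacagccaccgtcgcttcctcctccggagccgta
Ndufa10 (chr1:92473709-92474008, minus strand): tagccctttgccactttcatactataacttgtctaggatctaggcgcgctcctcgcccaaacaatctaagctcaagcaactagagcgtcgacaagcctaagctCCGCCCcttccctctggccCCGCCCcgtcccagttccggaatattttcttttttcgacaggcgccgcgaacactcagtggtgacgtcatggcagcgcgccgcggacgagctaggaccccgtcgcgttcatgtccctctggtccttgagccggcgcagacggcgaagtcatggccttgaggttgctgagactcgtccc
Ndufaf7 (chr17:78936885-78937184, plus strand): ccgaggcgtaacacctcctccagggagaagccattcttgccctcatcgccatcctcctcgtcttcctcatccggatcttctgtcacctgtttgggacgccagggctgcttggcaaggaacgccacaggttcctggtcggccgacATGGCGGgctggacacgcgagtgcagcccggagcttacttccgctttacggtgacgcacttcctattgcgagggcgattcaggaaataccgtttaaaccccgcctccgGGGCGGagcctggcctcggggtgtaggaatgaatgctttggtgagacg
Ndufa4 (chr6:11907401-11907700, minus strand): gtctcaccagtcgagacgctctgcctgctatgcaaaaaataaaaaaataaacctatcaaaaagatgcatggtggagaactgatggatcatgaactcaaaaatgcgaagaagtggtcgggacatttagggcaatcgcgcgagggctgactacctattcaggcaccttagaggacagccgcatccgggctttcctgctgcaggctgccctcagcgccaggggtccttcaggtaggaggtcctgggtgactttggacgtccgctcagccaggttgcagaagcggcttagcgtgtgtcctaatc

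The motifs searched on both strands were CCGGAAG (ETS factors), AAGGTCA (ERR), TGCGCA (NRF1), ATGGCGG (YY1) and GGGCGG (SP1). The Ndufa1 and Ndufaf7 windows each held 1 YY1 and 1 SP1 match, the Ndufa10 window held 2 SP1 matches, and the Ndufa4 window held none of these letters. Windows were found for 39 of the 45 Nduf genes, 41 windows in all. TGCGCA stood in 12 of the 41 (29.3%) against 7.76% of all 32851 windows in the table, and ATGGCGG stood in 10 (24.4%) against 4.05%. GGGCGG stood in 21 (51.2%) against 35.7%, CCGGAAG in 5 (12.2%) against 8.86%, and AAGGTCA in 3 (7.32%) against 4.72%. TGCGCA reads the same on both strands, and ATGGCGG and GGGCGG can share bases. The windows compared were not matched for expression or base content. A match is a description of letters and not a binding site.

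Ndufa1, a small membrane subunit encoded on the X chromosome (chrX:37187588-37191163, minus strand), was at 587, 648 and 632 normalised counts in cKO 1 to 3, against 677, 685 and 746 in control 1 to 3. Its log2 fold change was -0.18 (SE 0.09; limma adjusted p = 0.978). The other X-linked gene of the family, Ndufb11, another membrane-arm subunit, had 2159, 1898 and 1794 normalised counts in cKO libraries, against 1862, 1848 and 1964 in controls, which overlapped (log2 fold change 0.04, SE 0.09). With array weights the log2 fold change of Ndufb11 was -0.04, without cKO 1 it was -0.03, and without both libraries numbered 1 it was -0.05. Exons of Ndufb11 overlap those of Rbm10 on the opposite strand, and the strand setting of the counting is not given in the sources used here.

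Ndufa10, a membrane-arm subunit with a nucleoside kinase fold (chr1:92439010-92473860, minus strand), was at 1964, 2093 and 2015 normalised counts in cKO 1 to 3, against 2126, 2210.2 and 2227 in control 1 to 3. Its log2 fold change was -0.11 (SE 0.07; limma adjusted p = 0.978). The gap between the groups was narrow, with cKO 2 just below control 1. Ndufaf7 (chr17:78937136-78948052, plus strand) was at 349, 337 and 355 normalised counts in cKO libraries, against 371, 400 and 379 in controls (log2 fold change -0.14, SE 0.09; limma adjusted p = 0.978). Ndufa4 (chr6:11900292-11907497, minus strand) was at 1113, 1198 and 1209 normalised counts in cKO libraries, against 1316, 1244 and 1357 in controls (log2 fold change -0.15, SE 0.08; limma adjusted p = 0.978). For each of the 4 the 2-sided exact permutation p was 0.1, the smallest that 3 libraries against 3 can give, and exons of none of them overlap another gene in GENCODE M21.

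**Figure D2:**
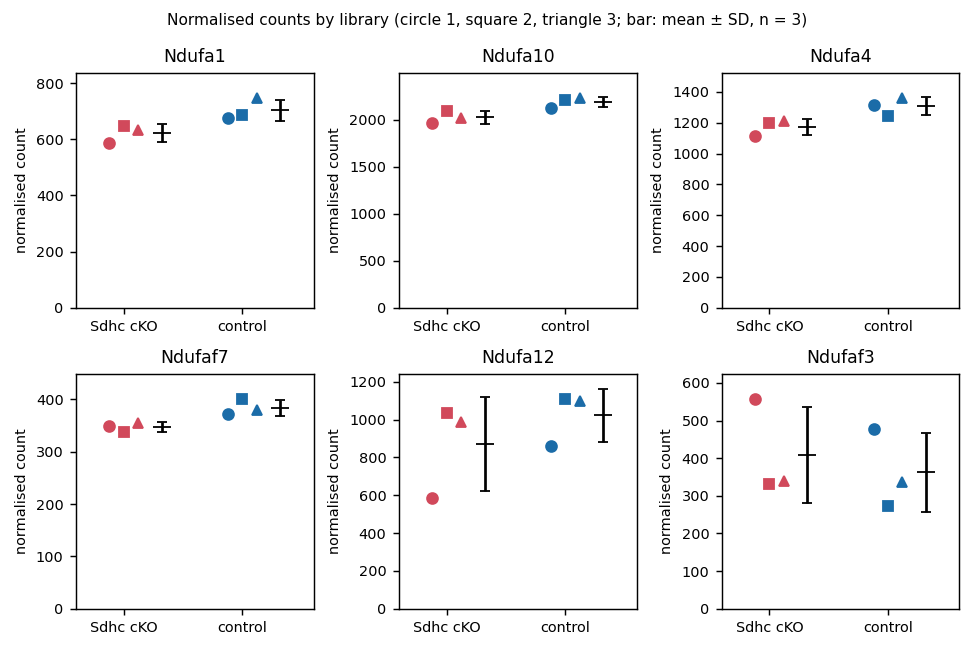
Normalised counts on the y axis, from 0, are drawn for 6 Nduf genes in the 3 Sdhc cKO and the 3 control libraries, with circle, square and triangle for libraries 1, 2 and 3 and bars for the mean ± SD (n = 3). Ndufa1, Ndufa10, Ndufa4 and Ndufaf7 have all cKO points below all control points, while Ndufa12 and Ndufaf3 differ most between library 1 and the others in both groups.

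The core subunits form the electron path of the matrix arm, and 6 of them are described here. These 6 had negative log2 fold changes, with a median of -0.07, and none passed the test. With upper-quartile scaling 5 of 6 were negative, without control 3 this was 4 of 6, and without cKO 3 it was 5 of 6. The cKO and control values overlapped for all 6.

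Ndufv1, which binds NADH and the flavin, was at 1414, 1350.3 and 1383 normalised counts in cKO 1 to 3, against 1351, 1472 and 1538 in control 1 to 3 (log2 fold change -0.07, SE 0.08). Ndufv2, the iron-sulfur subunit beside it, was at 1979, 2089.6 and 1934 in cKO libraries, against 1887, 2099 and 2202 in controls (-0.04, SE 0.08). Ndufs1, the largest subunit and a carrier of several iron-sulfur clusters, was at 1407, 1311 and 1262 in cKO libraries, against 1426, 1341 and 1422 in controls (-0.07, SE 0.08). Control 3 was the highest library for Ndufv1 and Ndufv2, and for Ndufs1 it was nearly level with control 1, the highest.

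Ndufs3, a subunit of the quinone module, was at 916, 831 and 816 normalised counts in cKO 1 to 3, against 818, 884 and 909.6 in control 1 to 3 (log2 fold change -0.03, SE 0.09). Ndufs7, which holds the terminal iron-sulfur cluster, was at 761, 795 and 749 in cKO libraries, against 778, 770.4 and 893 in controls (-0.08, SE 0.09). Ndufs8, an iron-sulfur subunit of the same module, had the log2 fold change farthest from 0 of these 6, at -0.12 (SE 0.08; limma adjusted p = 0.978). Its values were 1250.4, 1252 and 1313 in cKO libraries, against 1286, 1416 and 1459.6 in controls, and cKO 3 lay above control 1. Exons of Ndufs1 and Ndufs3 overlap those of genes on the opposite strand, so their counts are uncertain where the counting ignored strand.

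The 28 accessory subunits were evenly split, with 14 lower and 14 higher and a median log2 fold change of -0.00. In the matrix arm 4 of 9 were lower with a median of 0.00, and in the membrane arm 10 of 19 were lower with a median of -0.01. With upper-quartile scaling 2 of 9 and 7 of 19 were lower.

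Of the 9 matrix-arm accessory subunits, 8 had log2 fold changes between -0.04 (Ndufa9, which binds NADPH) and 0.07 (Ndufa6, a LYR protein that binds an acyl carrier protein). Ndufs4 and Ndufv3 of the NADH module, the zinc-holding Ndufs6, and Ndufa2, Ndufa5 and Ndufa7 lay between them. The exception was Ndufa12, a paralog of the assembly factor Ndufaf2 (chr10:94198720-94221443, plus strand, no exon overlap). Ndufa12 was at 588, 1037 and 989 normalised counts in cKO 1 to 3, against 862, 1108 and 1098 in control 1 to 3 (log2 fold change -0.27, SE 0.22; limma adjusted p = 0.978). The libraries numbered 1 were the lowest of each group and the groups overlapped. Without cKO 1 its log2 fold change was -0.00.

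In the membrane arm, besides Ndufa1 and Ndufa10, negative log2 fold changes reached -0.15 (Ndufb4, SE 0.17), -0.14 (Ndufb3, SE 0.09) and -0.13 (Ndufc2, SE 0.11). None of these passed the test, and in each the groups overlapped. Ndufb2 had the highest log2 fold change of all tested Nduf genes, 0.31 (SE 0.19; limma adjusted p = 0.978), with 182, 182 and 172 normalised counts in cKO libraries, against 119, 132 and 191 in controls. The cKO values lay close together and inside the range of the controls. Exons of Ndufb2 overlap Braf, Gm16272 and Gm42420, so its counts are uncertain. The 13 remaining membrane-arm genes, among them Ndufs5 and Ndufa8 of the intermembrane space and Ndufa13 (also called GRIM-19), lay between -0.07 (Ndufs5) and 0.08 (Ndufa13). Ndufab1, the mitochondrial acyl carrier protein found in both arms, was at 669, 897 and 905 normalised counts in cKO libraries, against 835, 896 and 907 in controls (log2 fold change -0.11, SE 0.13), where only cKO 1 stood below the rest. Without cKO 1 its log2 fold change was 0.04.

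The assembly factors had 5 of 7 genes on the lower side and a median log2 fold change of -0.09, and none passed the test. Ndufaf2, which binds late intermediates, was at 84.4, 98.5 and 100.1 normalised counts in cKO 1 to 3, against 132, 99.97 and 115 in control 1 to 3 (log2 fold change -0.29, SE 0.16; limma adjusted p = 0.978). This was the most negative value of the family, and cKO 3 and control 2 met at the same level. Exons of Ndufaf2 overlap B230220B15Rik on the opposite strand, so its counts are uncertain. Ndufaf4, which acts on the quinone module, was at 138, 174 and 163 in cKO libraries, against 192, 159 and 198 in controls (-0.21, SE 0.15). Ndufaf1, which acts on a membrane-arm intermediate, was at 324, 387 and 331 in cKO libraries, against 358, 412 and 343 in controls (-0.09, SE 0.12). Ndufaf5, which hydroxylates an arginine of Ndufs7, was at 277, 245 and 226 in cKO libraries, against 251, 256 and 249 in controls (-0.02, SE 0.12). For these 4 genes the groups overlapped.

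The assembly factors on the higher side were Ndufaf6 and Ndufaf3. Ndufaf6, an early assembly factor, was at 162, 179 and 176 normalised counts in cKO libraries, against 132, 147 and 175 in controls (log2 fold change 0.19, SE 0.14), with control 3 inside the cKO range. Ndufaf3, the partner of Ndufaf4 in building the quinone module (chr9:108565537-108567434, minus strand), was at 556, 332 and 339 in cKO 1 to 3, against 479, 272 and 335 in control 1 to 3 (0.17, SE 0.26; limma adjusted p = 0.981). Libraries numbered 1 were the highest of both groups, the opposite of Ndufa12. The log2 fold change of Ndufaf3 was -0.07 without cKO 1 and -0.01 without control 2. Exons of Ndufaf3 overlap Impdh2 on the opposite strand, so its counts are uncertain. Ndufaf8 is listed in the table under its older symbol 1810043H04Rik and so lies outside the 45. It was at 203, 207 and 200.2 normalised counts in cKO libraries, against 160.2, 208 and 249.7 in controls (log2 fold change 0.01, SE 0.17).

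Ndufa4l2, a paralog of Ndufa4 that is known as a target of HIF, did not pass the filter. It was at 5.02, 15.4 and 15.1 normalised counts in cKO 1 to 3 (5, 17 and 14 reads), against 4.63, 7.84 and 6.60 in control 1 to 3 (5, 8 and 6 reads). The groups overlapped, with a 2-sided exact permutation p of 0.3, and exons of Ndufa4l2 overlap Shmt2 on the opposite strand.

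One control library stood apart for the Nduf genes. Control 3 was the highest of the 6 libraries for 23 of 44 Nduf genes (52.3%), against 12.6% of all genes tested, and the lowest for 0. Control 1 was the lowest library for 13 (29.5%, against 12.7% of all genes), and cKO 1 was the lowest for 16 (36.4%, against 32% of all genes). The median deviation from the gene mean was -0.05, -0.02 and -0.01 on the log2 scale in cKO 1 to 3, against -0.05, -0.02 and 0.12 in control 1 to 3. The cKO libraries and control 1 and 2 therefore covered the same range, and control 3 lay above them. The share of reads in Nduf genes was also highest in control 3, with 0.234%, 0.229% and 0.235% in cKO 1 to 3, against 0.230%, 0.231% and 0.246% in control 1 to 3.

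Without control 3, 18 of 44 Nduf genes were on the lower side, beside 54.7% of all genes, and their median log2 fold change was 0.01. In that setting 4 Nduf genes lay apart on the lower side and 5 on the higher side, beside 9.73% and 8.3% of all genes. Without both libraries numbered 1, 33 of 44 were on the lower side, beside 52.3% of all genes. The median of the 44 was -0.07 there, beside -0.01 for all genes. This setting leaves 2 against 2 and was chosen after seeing the data. In that setting 13 lay apart on the lower side, 5 of them among the 6 core subunits described, and 1 on the higher side, beside 21.7% and 17% of all genes, and limma-trend called 0 Nduf genes, beside 0.0236% of all genes. At an unadjusted p under 0.05 it had 1 Nduf gene, beside 7.32% of all genes. Without control 1, 35 of 44 were on the lower side, beside 52.1% of all genes, with a median of -0.06. With libraries weighted by their quality (array weights) 35 of 44 were also on the lower side, beside 53.1% of all genes, and 1 Nduf gene had an unadjusted p under 0.05, beside 7.64% of all genes. That fit called 0 Nduf genes and 0.00787% of all genes. The direction of the family thus differed with the libraries kept.

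**Figure D3:**
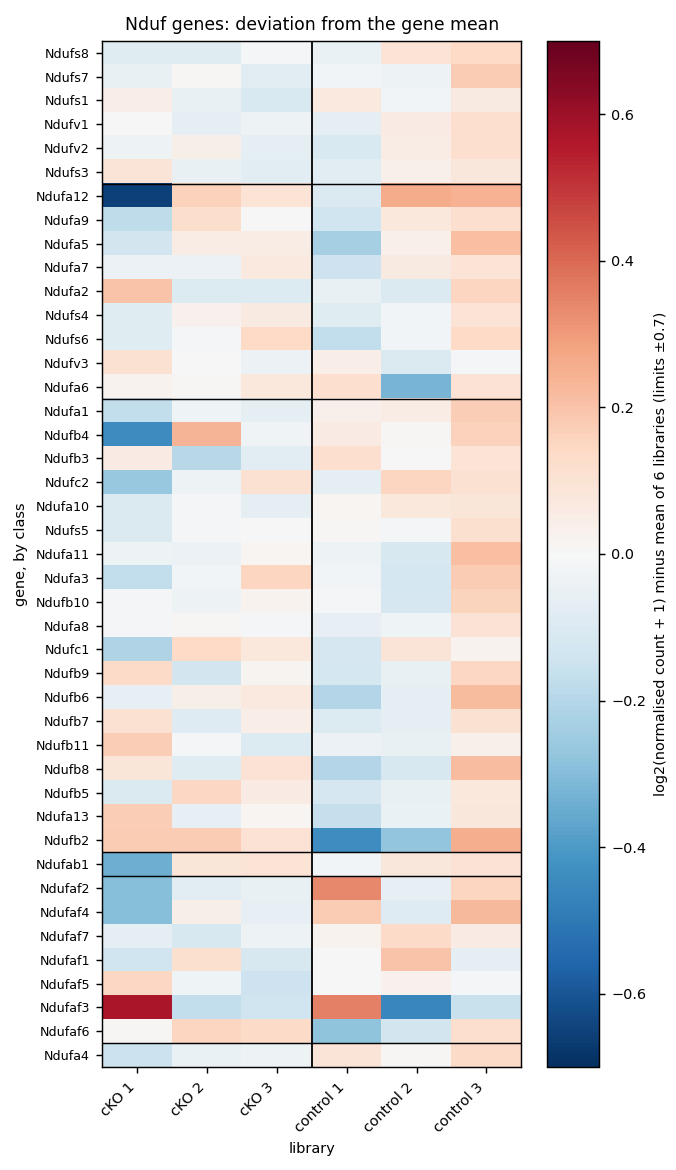
Of the 44 tested Nduf genes, 43 are drawn as lines down the page, grouped by class, each column is a library with the 3 Sdhc cKO left of the 3 controls, and the colour is the log2 value minus the mean of that gene over the 6 libraries. The control 3 column is above the mean for most genes, and the darkest cells are Ndufa12 and Ndufaf3 in cKO 1.

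**Figure D4:**
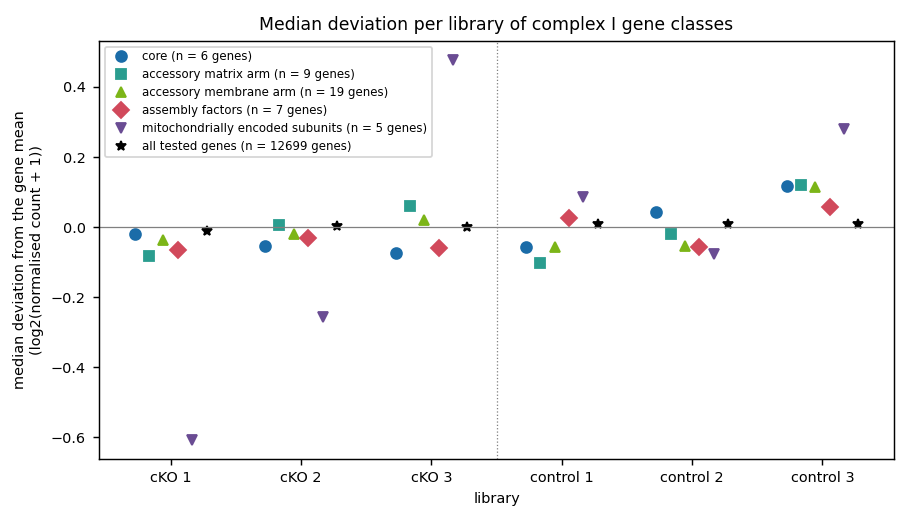
The y axis gives the median deviation from the gene mean (log2 of normalised count plus 1) of each class of complex I genes in each library, with Sdhc cKO libraries left of controls. Nuclear classes stay between -0.10 and 0.12, and the mitochondrially encoded subunits range from -0.61 in cKO 1 to 0.48 in cKO 3.

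With libraries of the same number taken as pairs, cKO was below control in all 3 pairs for 10 Nduf genes, beside 21.8% of all genes tested, and above it in all 3 for Ndufaf3 and Ndufaf6, beside 14.6%. The 10 were Ndufs1, Ndufs8, Ndufa12, Ndufa1, Ndufa10, Ndufb3, Ndufaf1, Ndufaf2, Ndufaf7 and Ndufa4. With the replicate number as a block, limma-trend called 0 Nduf genes, beside 0.00787% of all genes, and had 3 at an unadjusted p under 0.05, beside 12.6% of all genes. These were Ndufa12 (limma adjusted p = 0.323), Ndufa1 (limma adjusted p = 0.371) and Ndufa4 (limma adjusted p = 0.376).

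With the share of Y-linked reads as a covariate, limma-trend called 6.5% of all genes tested and 2 Nduf genes. Relative to the highest library, this share was 0.0011, 1 and 0.98 in cKO 1 to 3, against 0.00025, 0.68 and 0.29 in control 1 to 3. Outside the libraries numbered 1 it was higher in cKO than in control, so this fit separates it only partly from genotype. Ndufa12 was lower by this fit (log2 fold change -0.51, SE 0.09; limma adjusted p = 0.0158), beside 4.86% of all genes called lower. Ndufaf3 was higher by it (0.46, SE 0.11; limma adjusted p = 0.0370), beside 1.65% of all genes called higher. At an unadjusted p under 0.05 this fit had 7 Nduf genes, beside 25.8% of all genes. Ndufa12 and Ndufaf3 both had the libraries numbered 1 at one end of each group. Fitted on genotype alone without cKO 1, the log2 fold change was -0.00 for Ndufa12 and -0.07 for Ndufaf3. The part of sex-linked composition in the values of the covariate fit was not tested.

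Over the 44 tested genes the highest library was at most 2.04 times the lowest (Ndufaf3), with a median of 1.23, against a median of 1.37 over the genes tested with a value above 0 in every library. The ratio was under 1.5 for 39 of the 44, and the genes compared were not matched for level.

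Levels were compared between genes as normalised counts per kb of joined exons, averaged over the 6 libraries. Complex I subunits had a median level of 744 per kb, with means of 29.0 to 2115, and the 7 assembly factors had a median of 131 per kb, with means of 35.3 to 239. In 29 of 36 subunits every library lay above every library of every assembly factor. A second length was that of the principal transcript, the longest where a gene has several, in place of all exons. With it the medians were 1362 and 209 per kb, and 33 of 36 subunits lay above, all but Ndufb2, Ndufb4 and Ndufab1. This length was 4371 bases for Ndufb2 and 3479 for Ndufab1, so their levels per kb depend on that choice. The difference in level between subunits and assembly factors thus held with both lengths, while single ranks did not.

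By joined exons the highest levels per kb belonged to the membrane-arm genes Ndufb11 (2115), Ndufa13 (1885) and Ndufa8 (1730.0). The lowest were Ndufa4l2 (8.30), Ndufb2 (29.0) and Ndufaf2 (35.3). By the principal transcript Ndufa6 (2644), Ndufa7 (2629.7) and Ndufb9 (2431) were highest. Of the 6 core subunits described, by joined exons, Ndufs8 was highest at 1029.9 per kb, followed by Ndufv2 at 946, Ndufv1 at 538, Ndufs7 at 461, Ndufs3 at 396 and Ndufs1 at 168. The library ranges of Ndufs8 and Ndufv2 and of Ndufv1 and Ndufs7 overlapped, and those of the other neighbours did not. By the principal transcript Ndufs3 (824 per kb) and Ndufs7 (805 per kb) changed places, and Ndufs1 remained lowest at 512 per kb.

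**Figure D5:**
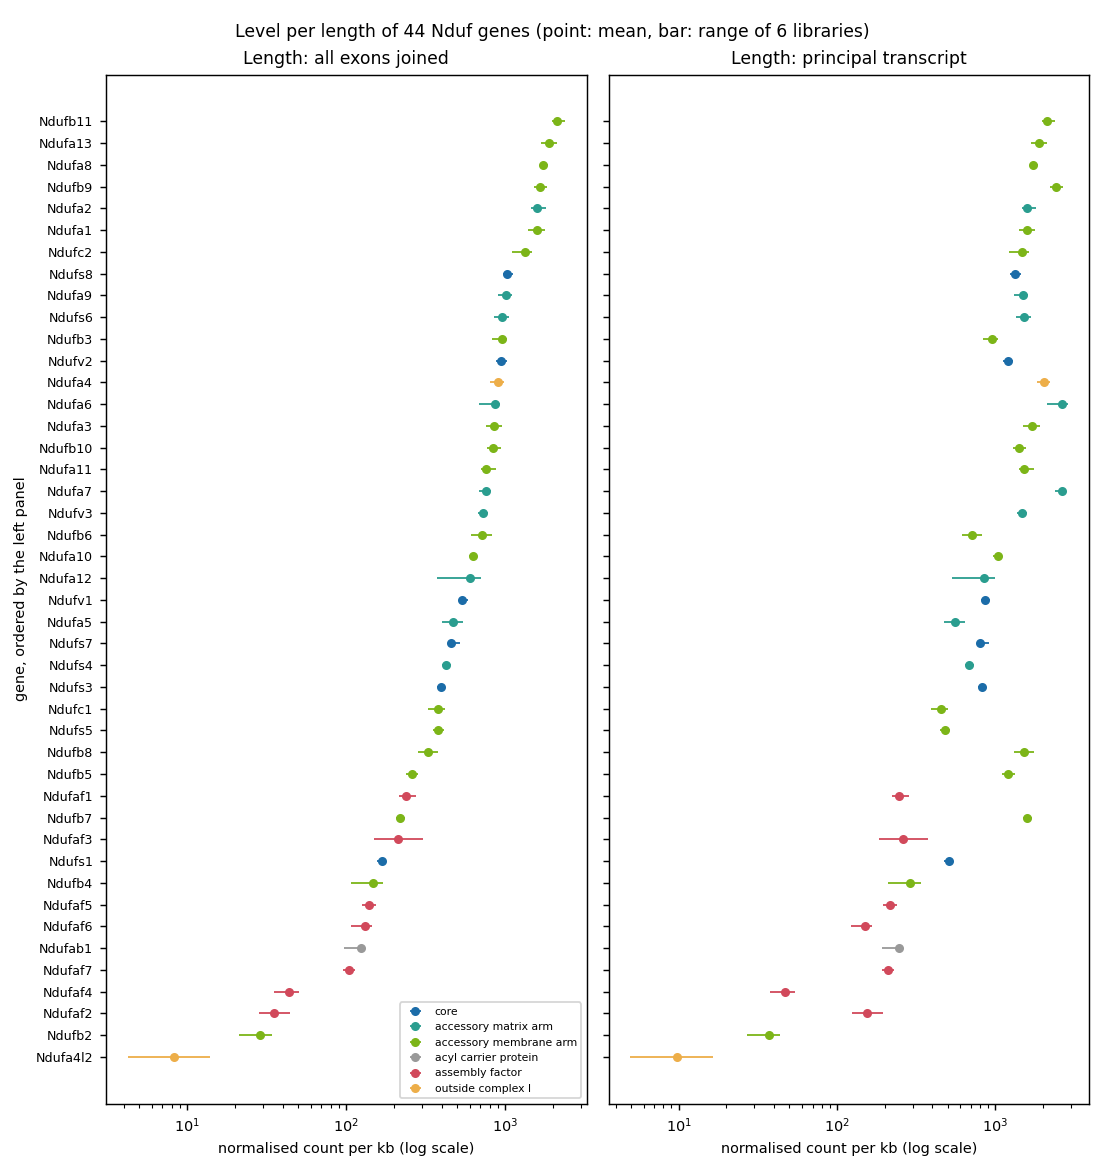
The x axis gives the normalised count per kb on a log scale for 44 of the 45 Nduf genes, by joined exons in the left panel and by the principal transcript in the right one, with points for the mean of 6 libraries and bars for their range. Assembly factors lie below most subunits in both panels, and Ndufa4l2 is lowest in both.

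Of the 7 complex I subunits encoded by mitochondrial DNA, 5 passed the filter, 4 of them had a negative log2 fold change, and limma-trend called 0. Their median log2 fold change was -0.32, with a median SE of 0.27. For mt-Nd1 the normalised counts were 6130.5, 8111 and 11675 in cKO 1 to 3, against 9525, 10858 and 11030.1 in control 1 to 3 (log2 fold change -0.32, SE 0.21; limma adjusted p = 0.978). The cKO libraries spanned the controls, with cKO 1 lowest and cKO 3 highest of all 6. For mt-Nd4 they were 2132, 3120.0 and 5012 in cKO libraries, against 4023, 3700.0 and 4370.0 in controls, in the same order within the cKO group. Without cKO 3 the median of the 5 was -0.57 and all 5 were lower, while without cKO 1 it was -0.02 and 3 of 5 were lower. With the Y-linked covariate limma-trend called 1 of the 5, mt-Nd1 (log2 fold change -0.51, SE 0.13; limma adjusted p = 0.0485), beside 4.86% of all genes called lower. All mitochondrial genes together took 0.562%, 0.525% and 0.888% of reads in cKO 1 to 3, against 0.738%, 0.628% and 0.729% in control 1 to 3. The nuclear subunits did not share this spread, with median deviations of -0.04, -0.01 and 0.01 in cKO 1 to 3 against -0.61, -0.26 and 0.48 for the mitochondrially encoded ones in the same libraries.

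Of 17 symbols of complex I assembly factors outside the Nduf family, older and newer names of a gene counted apart, 13 were in the table, and all 13 were tested. Limma-trend called 0 of them, 9 had a negative log2 fold change, beside 54.1% of all genes, and the median was -0.03. With upper-quartile scaling 5 of 13 were negative, beside 44.1% of all genes, with a median of 0.01, and without cKO 2 it was 6 of 13 with a median of 0.03. At an unadjusted p under 0.05 limma-trend had 2 of the 13, beside 3.5% of all genes, and both lay apart on the higher side, beside 4.51% of all genes. Tmem186, a factor of a membrane-arm intermediate, was at 337, 365 and 392 normalised counts in cKO 1 to 3, against 295, 303 and 277 in control 1 to 3 (log2 fold change 0.32, SE 0.10; limma adjusted p = 0.978). Exons of Tmem186 overlap Pmm2 on the opposite strand, so its counts are uncertain. Sfxn4, a sideroflexin, was at 34.1, 30.7 and 38.7 in cKO libraries, against 25.9, 23.5 and 12.1 in controls (0.79, SE 0.32; limma adjusted p = 0.978). Without cKO 1, 2 or 3 in turn, the 13 had 1, 1 and 0 genes at an unadjusted p under 0.05. All 12699 genes tested had 485, 649 and 242 there. Without control 1, 2 or 3 in turn, the 13 had 2, 2 and 0 such genes, beside 542, 260 and 372 of all genes. The factors Acad9 and Ecsit had log2 fold changes of -0.11 each (SE 0.12 and 0.13) with overlapping groups.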

How the data were processed

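For each gene symbol and library the deposited signal is a count divided by a size factor. STAR, HTSeq, DESeq2 and build mm10 are named in the submitters' processing notes; versions, annotation and strand setting: not given in the sources used here. In each library 100% of the deposited values were whole multiples of the worth of 1 read to within 0.01, and the recovered reads summed to 18144933 to 21983821. Intervals cover the spread between libraries only.

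The design allowed edgeR for raw counts and limma-trend for normalised values. Since the values are normalised, the log2(value + 1) of 12699 genes, those above 10 in 3 or more libraries, was fitted on genotype alone by limma-trend (R 4.3.3, limma 3.58.1), and p-values were adjusted over these genes by Benjamini-Hochberg with a threshold of 0.05. These fold changes understate the change of low genes. Recovered reads were tested with edgeR 4.0.16 (quasi-likelihood) and DESeq2 1.42.0. The programs were tested on simulated data. Single genes were compared by 2-sided exact permutation tests on normalised counts.

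Groups were taken from titles and genotype labels. The labels give both groups the numbers 1 to 3 without saying that a number marks a shared mouse or day. Over all tested genes, deviations from the group means correlated at 0.58, 0.46 and 0.19 between libraries with the same number, and the numbers were treated as pairs on that ground only. Of the pairs with different numbers, cKO 3 and control 2 correlated at 0.27, above the third of these.

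The 45 genes, their classes, the other lists and the settings were chosen with earlier results of these data known. One gene of the family enters the counts and is not reported here by itself. Named genes were the other core subunits, the Ndufaf genes, Ndufa4, Ndufa4l2, Ndufab1, X-linked genes, genes without overlap between groups, the 5 with the smallest p, the 3 highest and 3 lowest per kb, genes under the filter and genes called by any setting. Positions, joined exons and principal transcripts came from GENCODE M21 (GRCm38), which held 17613 of the 18929 symbols. Exons of 19 of the 45 Nduf genes overlap those of another gene there, and not every such overlap is named above. Promoter windows came from RefSeq (GRCm38.p6).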

Additional observations from a re-analysis of the deposited data

How the results depend on the processing

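Beside the values reported, 20 other settings were run. Of 22 Nduf genes followed one by one, 14 kept the direction of their log2 fold change in all 20 settings and 8 changed it in at least 1. Some of the 22 were picked for their values, so these counts do not stand for all 44 tested. For Ndufa1, Ndufa10, Ndufaf7 and Ndufa4, whose groups did not overlap, leaving out libraries could not change the direction. Upper-quartile scaling gave positive values for Ndufs3 (0.0066), Ndufaf5 (0.0155) and Ndufa8 (0.0260). Ndufa8 was also positive with DESeq2 (0.0013), edgeR (0.0065) and limma-voom (0.0085), and Ndufaf5 with edgeR (0.0033) and with the Y-linked covariate (0.0365). Array weights gave negative values for Ndufb11 (-0.0392) and Ndufa13 (-0.0054), and leaving out both libraries numbered 1 gave -0.0460 for Ndufb11 and -0.0412 for Ndufa13. The number of all genes called was 2 with DESeq2, 1 with array weights, 1 with the replicate block, 826 with the Y-linked covariate and 3 without both libraries numbered 1. The number of Nduf genes called was 2 with that covariate and 0 in every other setting. At an unadjusted p under 0.05 there were 1 with array weights, 3 with the replicate block, 7 with the covariate and 1 without both libraries numbered 1, and in that last setting 14 Nduf genes lay apart between groups. The median of assembly factors with other symbols was 0.0733 with the covariate. Per kb of the principal transcript the medians were 209 for assembly factors and 1362 for subunits. Leaving out each library in turn, the log2 fold change ranged from -0.0387 to 0.0396 for Ndufa8, -0.18 to 0.0354 for Ndufab1, -0.0716 to 0.39 for Ndufaf3, -0.0974 to 0.0493 for Ndufaf5, -0.0349 to 0.0987 for Ndufb11, -0.0792 to 0.0046 for Ndufs3 and -0.10 to 0.0068 for Ndufv2. In the same runs the genes called numbered 0 to 1, the Nduf genes at an unadjusted p under 0.05 numbered 0 to 1, and the Nduf genes without overlap numbered 6 to 10, which is 13.6% to 22.7% of those tested, beside 15.4% to 25.8% of all genes. The replicate block changed no call of an Nduf gene. The cause of these shifts was not tested. With 3 libraries per group, the intervals of Ndufaf3 and Ndufa12 were the widest of the 44, and the 5 to 17 reads of Ndufa4l2 limit any statement on it.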
